A study of Mus musculus with 4 samples.

Results

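Chromatin of adipocyte nuclei was precipitated with an antibody against BCL6 and sequenced, and the inguinal (subcutaneous) peak list of that experiment held 975 low peaks without a counterpart in perigonadal (visceral) fat. These are called low unpartnered peaks here. They were chosen by a deposited peak score under 9.7, which is 12 tags or fewer (a tag is 1 sequenced read counted at the peak), and by the lack of any perigonadal peak overlapping them by 1 bp or more. They made up 54.6% of the 1785 inguinal peaks, and 975 of the 5741 peaks of both lists. All libraries came from C57BL/6 mice of the genotype Adipoq-Cre;Sun1-sfGFP-myc, in which a Cre driven by the adiponectin promoter turns on a tagged nuclear membrane protein in fat cells. The tissue was fixed with disuccinimidyl glutarate and formaldehyde, tagged nuclei were collected on beads against myc, and the BCL6 libraries used a custom guinea pig polyclonal antibody. Each depot had 1 BCL6 library and 1 input library without antibody, 4 libraries in all, and the 2 input libraries were not analysed here. The labels give neither the age and sex of the mice nor the number pooled per library. With 1 library per depot no difference could be set against variation between animals, so no p-value is given, and all intervals cover counting error only.

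BCL6 is a zinc finger repressor that binds DNA through its carboxy-terminal fingers and recruits corepressors through its amino-terminal BTB domain. It is best known as the factor that maintains germinal centre B cells and T follicular helper cells. Its DNA motif has the core TTCNNNGAA, in which N is any base, and resembles the sites of STAT factors, so that BCL6 and STAT5 can compete for the same sites. TTCCTAGAA is a strong form of that motif. In fat, BCL6 has been studied for its part in adipocyte growth and insulin response.

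Sequence could be read at the few sites that reach a RefSeq promoter window (GRCm38.p6, 250 bases before to 50 after a transcript start). Of the 975 low unpartnered peaks 14 overlapped such a window, as did 3 of the 72 low inguinal peaks with a partner. The following upstream stretches show 3 of these 14 sites, both that hold the motif in their stretch and that of an adipocyte gene, and the sites of all 3 low peaks with a partner. Each is written 5′ to 3′ on the strand of its gene and ends at the base before the transcript start, with any TTCNNNGAA match in capitals. The first 3 lie at low unpartnered peaks and the last 3 at low peaks with a perigonadal partner.
Zfp282: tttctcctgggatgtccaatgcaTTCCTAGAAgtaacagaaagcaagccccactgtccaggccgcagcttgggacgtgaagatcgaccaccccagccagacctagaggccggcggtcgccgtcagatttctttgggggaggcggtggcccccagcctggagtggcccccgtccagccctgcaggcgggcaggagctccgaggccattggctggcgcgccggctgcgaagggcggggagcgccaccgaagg
Cast: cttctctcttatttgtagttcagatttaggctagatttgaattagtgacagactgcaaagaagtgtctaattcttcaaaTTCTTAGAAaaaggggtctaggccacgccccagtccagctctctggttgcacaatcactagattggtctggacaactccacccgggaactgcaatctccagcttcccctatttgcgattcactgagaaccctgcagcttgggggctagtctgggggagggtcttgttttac
Cidec: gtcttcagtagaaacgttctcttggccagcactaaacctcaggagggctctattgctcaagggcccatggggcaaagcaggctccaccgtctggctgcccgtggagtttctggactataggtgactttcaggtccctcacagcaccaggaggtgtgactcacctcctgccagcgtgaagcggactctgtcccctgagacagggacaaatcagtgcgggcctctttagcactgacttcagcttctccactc
Igfals: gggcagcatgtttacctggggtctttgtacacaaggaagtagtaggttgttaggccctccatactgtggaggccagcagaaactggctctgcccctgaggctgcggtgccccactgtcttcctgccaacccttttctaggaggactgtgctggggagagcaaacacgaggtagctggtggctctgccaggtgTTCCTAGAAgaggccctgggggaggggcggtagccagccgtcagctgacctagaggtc
Shq1: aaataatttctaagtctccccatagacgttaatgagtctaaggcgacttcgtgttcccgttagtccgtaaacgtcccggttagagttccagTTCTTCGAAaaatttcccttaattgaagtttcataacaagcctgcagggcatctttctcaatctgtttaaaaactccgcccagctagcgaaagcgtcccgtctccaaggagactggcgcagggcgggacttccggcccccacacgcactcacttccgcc
Zfp719: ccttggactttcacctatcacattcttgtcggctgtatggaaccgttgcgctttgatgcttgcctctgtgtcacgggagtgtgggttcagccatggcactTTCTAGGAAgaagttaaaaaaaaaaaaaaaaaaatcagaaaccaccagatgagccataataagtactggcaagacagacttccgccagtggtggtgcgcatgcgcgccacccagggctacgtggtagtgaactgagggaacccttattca
The Zfp282 stretch (chr6:47877305-47877554, plus strand) belongs to a zinc finger gene and holds the strong form TTCCTAGAA, 52 bp from the centre of a peak of 10 tags. The Cast stretch (chr13:74808761-74809010, minus strand), at the calpastatin gene, has its match 163 bp from the centre of a peak of 11 tags and outside the peak itself. The Cidec stretch (chr6:113434765-113435014, minus strand), at the gene of a lipid droplet protein of fat cells, has no match. At the low peaks with a partner the match lay 18 bp from the centre at Igfals (chr17:24877981-24878230, plus strand), a carrier of circulating IGF. It lay 21 bp from the centre at Shq1 (chr6:100671158-100671407, minus strand) and 3 bp from it at Zfp719 (chr7:43579336-43579585, plus strand).

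TTCNNNGAA reads the same on both strands, and TTCCTAGAA is a special case of it that was searched on both strands. Within the bases that lay in a peak and in a window, 1 of the 14 low unpartnered peaks held TTCNNNGAA, and 0 of 14 held it within 50 bp of the centre. All 3 low peaks with a partner held it within 50 bp. Of peaks over 12 tags, 4 of 20 without a partner and 5 of 19 with a partner held it somewhere in these bases, and 4 of each within 50 bp. Some bases within 50 bp of the centre could be read at all 14 and all 3 low inguinal peaks. For peaks over 12 tags this held at 19 without and 16 with a partner. Per kb of scanned sequence the low unpartnered peaks had 0.464 matches (exact Poisson 95% interval 0.0117 to 2.59 over 2155 bases). Low unpartnered peaks of perigonadal fat had 1.35 (0.619 to 2.57), with a match in 7 of 57 peaks. Within 50 bp of the centre it lay in 5 of the 49 with bases read there. Low peaks with a partner had 5.15 (1.06 to 15.1), peaks over 12 tags had 1.27 (0.347 to 3.26) without and 2.66 (1.07 to 5.47) with a partner, and all promoter windows had 0.293. The intervals of matches per kb of all these peak classes overlap that of the low unpartnered peaks, so matches per kb do not separate them. By share of peaks, the interval for 3 of 3 low peaks with a partner (Wilson 95% interval 43.9 to 100%) lay above that for 1 of 14 low unpartnered peaks (1.27 to 31.5%). The intervals of the other peak classes overlap the latter, and all these shares rest on few peaks. Of whole windows, 8.30% of all 32851 held TTCNNNGAA and 0.411% held TTCCTAGAA or its reverse complement. Of the 15 windows at low unpartnered peaks, 2 held TTCNNNGAA and 1 of them TTCCTAGAA. No sequence was read for the other low unpartnered peaks.

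The heights of the low unpartnered peaks took 4 values, because the deposited scores are whole multiples of 1 step of 0.752. At 9 tags, a score of 6.77, there were 53 such peaks. At 10 tags (7.52) there were 295, at 11 tags (8.27) 449, and at 12 tags (9.03) 178. Peaks of 11 tags alone made up 46.1% of them. The exact Poisson 95% interval of 9 tags runs from 4.12 to 17.1 tags and that of 12 tags from 6.20 to 21, so peaks of these heights cannot be ranked against each other. The limit of the selection cuts through a continuous range. Just inside it 178 peaks of 12 tags had no partner, and just outside it 83 peaks of 13 tags (score 9.78) had none. The share of inguinal peaks with a perigonadal partner was 7.02% at 9 tags, 3.59% at 10, 5.47% at 11, 14.8% at 12, 21% at 13, 25% at 14 and 66.0% at 16 tags. Height and partner defined the group, so these values describe it and are no test.

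**Figure D1:**
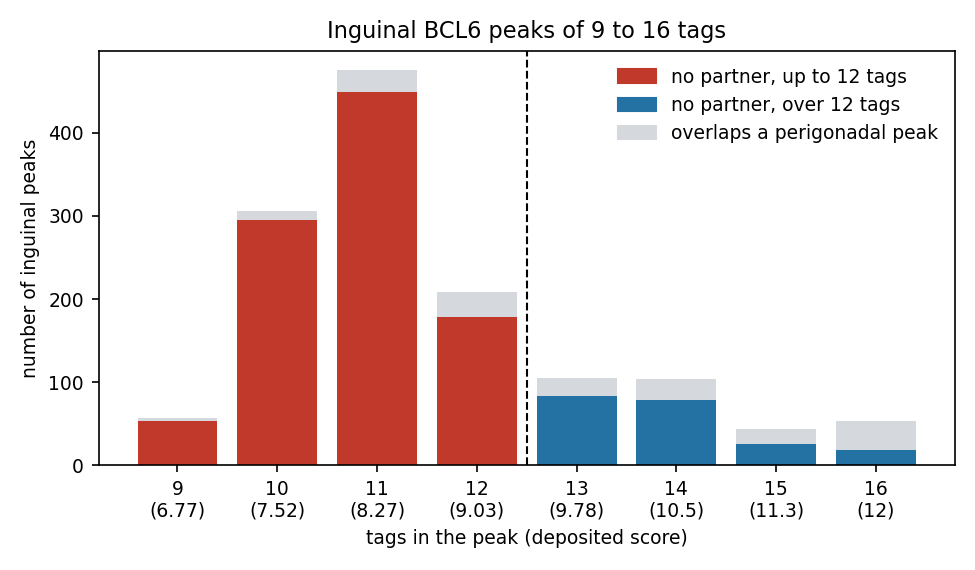
Number of inguinal BCL6 peaks (vertical axis) by tags per peak, with the deposited score in parentheses (horizontal axis), split by whether a perigonadal peak overlaps. The dashed line is the limit of the selection; the 449 unpartnered peaks of 11 tags form the highest bar part, and the grey part with a partner makes up a growing share of the bars to the right of the line, 66.0% at 16 tags.

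Low unpartnered peaks lay in annotated repeats more often than taller peaks. Of 975, 269 were in a repeat, 27.6% (Wilson 95% interval 24.9 to 30.5%), against 16.9% (13.1 to 21.5%) of the 302 peaks over 12 tags without a partner and 9.86% (7.40 to 13%) of the 436 peaks over 12 tags with a partner. The difference was 10.7 percentage points to the unpartnered tall peaks (Newcombe 95% interval 5.33 to 15.5) and 17.7 points to the partnered tall peaks (13.6 to 21.5). With a limit of 10 tags the difference to unpartnered taller peaks was 3.08 points (-2.18 to 8.66) and no longer clear of 0. Against the 72 low peaks with a partner, of which 18.1% lay in repeats, it was 9.53 points with an interval of -1.24 to 17.3 that includes 0. Against the 2912 low unpartnered peaks of perigonadal fat, chosen the same way at 12 tags or fewer, of which 28.3% lay in repeats, it was -0.67 points (-3.86 to 2.63). The share of the mouse genome in repeats was not computed, so these shares are relative to other peaks.

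The LTR and SINE shares were above those of both tall classes, and the LINE share above that of the tall partnered peaks. LTR elements, remnants of endogenous retroviruses, held 96 low unpartnered peaks, or 9.85%, against 2.98% of the tall partnered peaks (difference 6.86 points, 4.19 to 9.24) and 5.96% of the tall unpartnered peaks (difference 3.89 points, 0.20 to 6.85). SINEs, short elements copied by the machinery of LINEs, held 70, or 7.18%, against 0.459% of the tall partnered peaks (difference 6.72 points, 4.83 to 8.55) and 3.64% of the tall unpartnered peaks (difference 3.54 points, 0.41 to 5.94). LINEs held 76, or 7.79%, against 4.82% of the tall partnered peaks (difference 2.98 points, 0.11 to 5.46). Among the LTR elements the ERVL-MaLR family was the most frequent with 54 peaks, 5.54%, against 2.32% of the tall unpartnered and 1.61% of the tall partnered peaks. The L1 family held 70 peaks. Among SINEs, B4 held 23, Alu (B1) 22 and B2 16 peaks, while the 436 tall partnered peaks counted 0, 0 and 1. DNA transposons held 1.74% of low unpartnered and 1.61% of tall partnered peaks, a difference of 0.14 points (-1.66 to 1.46). Along the whole inguinal list, partnered or not, the share in repeats was 31.6% at 9 tags and 25.5% at 10. It was 28.2% at 11, 24.9% at 12, 18.2% at 13 to 14, 11.1% at 15 to 20 and 10.2% above 20 tags. Reads of repeats can map to several copies, and the sources used here do not say how such reads were treated.

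**Figure D2:**
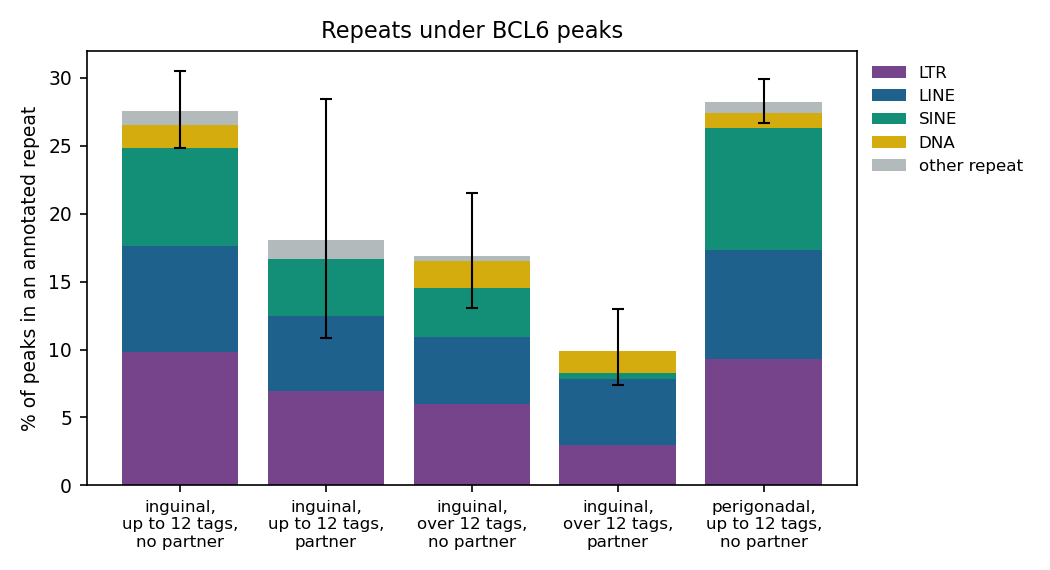
Share of peaks in an annotated repeat (vertical axis, percent), stacked by repeat class, for the 5 classes of peaks (horizontal axis). Bars at the top are Wilson 95% intervals of the total. The low unpartnered peaks of both depots reach 27.6% and 28.3%, and the tall partnered peaks 9.86%.

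In relation to genes, low unpartnered peaks were more often intronic and less often near promoters than the tall unpartnered peaks. Introns held 499 of them, 51.2% (48.0 to 54.3%), against 39.4% of tall unpartnered and 44.7% of tall partnered peaks, differences of 11.8 points (5.35 to 18) and 6.45 points (0.81 to 12). With a limit of 14 tags the difference to tall partnered peaks, 4.88 points, was no longer clear of 0. Of low peaks with a partner 36.1% were intronic (difference 15.1 points, 3.11 to 25.7). The excess over the tall classes was in introns after intron 1. These held 35.9% of low unpartnered peaks, against 24.2% and 27.3% (differences 11.7 points, 5.80 to 17.2, and 8.60 points, 3.33 to 13.6). Intron 1 held 15.3%, against 15.2% and 17.4%, with intervals of the difference that include 0. Intergenic positions held 41.7%, against 46.7% and 43.3%, again with intervals that include 0. Of low peaks with a partner 55.6% were intergenic (difference -13.8 points, -25.1 to -1.93). The remaining low unpartnered peaks were 36 at annotated promoters, 22 in exons or UTRs and 11 at transcription ends.

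Within 1 kb of the nearest annotated promoter lay 54 low unpartnered peaks, 5.54% (4.27 to 7.16%), against 11.3% of tall unpartnered peaks (difference -5.72 points, -9.98 to -2.23). With a limit of 10 tags this difference reversed to 0.80 points (-2.13 to 4.35). The share of tall partnered peaks was 7.80% (difference -2.26 points, -5.43 to 0.44). Farther than 50 kb from a promoter lay 39.5%, against 28.8% of tall unpartnered and 32.8% of tall partnered peaks (differences 10.7 points, 4.54 to 16.4, and 6.69 points, 1.24 to 11.9). The median distance to a promoter was 32.6 kb (interval of the median 29.6 to 36.9 kb), against 20.7 kb (16.9 to 26.6) for tall unpartnered and 25.4 kb (20.8 to 30.6) for tall partnered peaks. The 72 low inguinal peaks with a partner were close to the low unpartnered peaks here. They gave 5.56% within 1 kb, 37.5% beyond 50 kb and a median of 35.0 kb (25.2 to 48.3). Low unpartnered peaks of perigonadal fat gave 5.49% within 1 kb, 39.3% beyond 50 kb and a median of 32.8 kb. Over 33 position, repeat and gene-type measures, the interval of the difference between the low unpartnered peaks of the inguinal and perigonadal lists left out 0 for 2. These were peaks in exons or UTRs, 2.26% against 4.16%, and nearest genes found in the gene table, 99.5% against 100%.

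**Figure D3:**
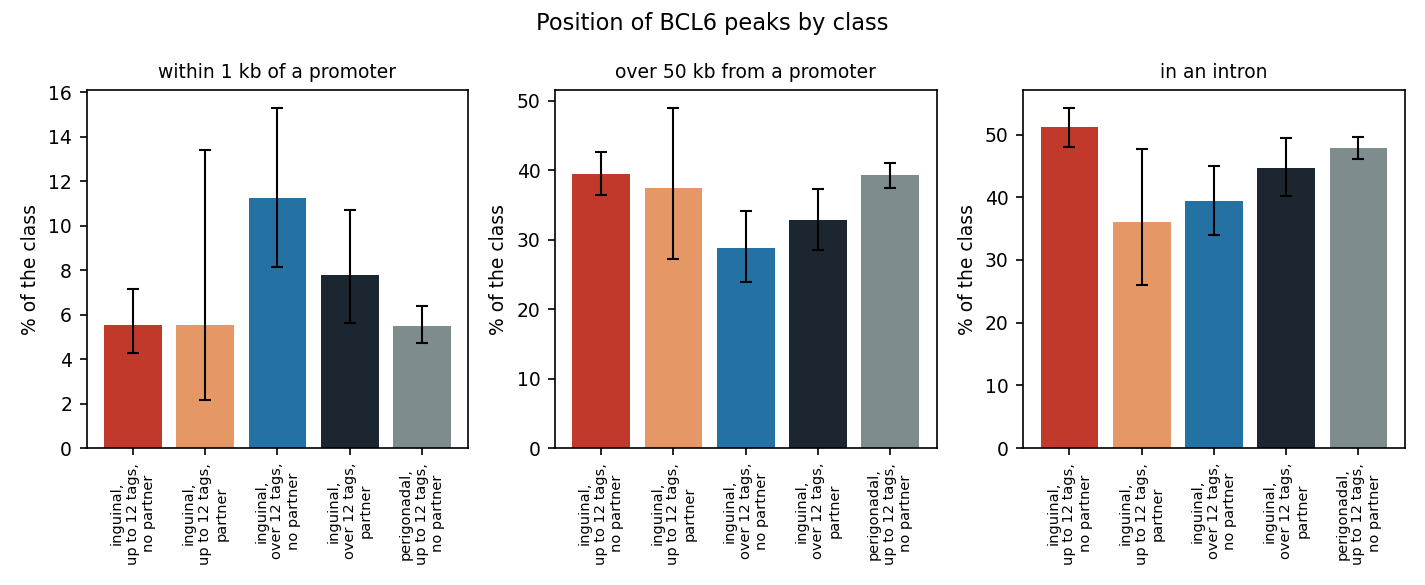
Share of each class of peaks (vertical axes, percent) within 1 kb of an annotated promoter, over 50 kb from it, and in an intron, for 5 classes of peaks (horizontal axes); error bars are Wilson 95% intervals. The low unpartnered inguinal peaks, at 5.54%, 39.5% and 51.2%, sit beside those of the perigonadal list at 5.49%, 39.3% and 47.8%.

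Set against the length of the genome, low unpartnered peaks still gathered near genes, less tightly around start sites than the tall unpartnered peaks. Each chromosome was taken to run to its last annotated gene, which includes stretches where reads cannot be placed. The bodies of protein-coding genes cover 37.9% of this span and held 552 low unpartnered peaks, 56.6% (53.5 to 59.7%), a ratio of 1.49 to the span. Tall unpartnered and tall partnered peaks had ratios of 1.34 and 1.35. The stretch within 1 kb of a RefSeq start covers 2.12% of the span outside chromosome 18 and held 4.87% of low unpartnered peaks (3.67 to 6.44%), a ratio of 2.30. The ratios of tall unpartnered and tall partnered peaks were 5.10 and 3.53. How much of the span could be read in this experiment was not tested.

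Peaks were not spread evenly over gene bodies of different length. Low unpartnered peaks occurred at 0.619 per Mb in genes of up to 20 kb (exact Poisson 95% interval 0.466 to 0.806), at 0.660 per Mb in genes of 20 to 100 kb and at 0.618 per Mb in genes of 100 to 300 kb. In the 557 genes over 300 kb they occurred at 0.313 per Mb (0.254 to 0.381), near the 0.25 per Mb (0.227 to 0.275) found outside gene bodies. Tall partnered peaks showed the same step, with 0.262 per Mb in genes of 100 to 300 kb and 0.117 per Mb in genes over 300 kb, as did tall unpartnered peaks with 0.171 and 0.0568.

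**Figure D4:**
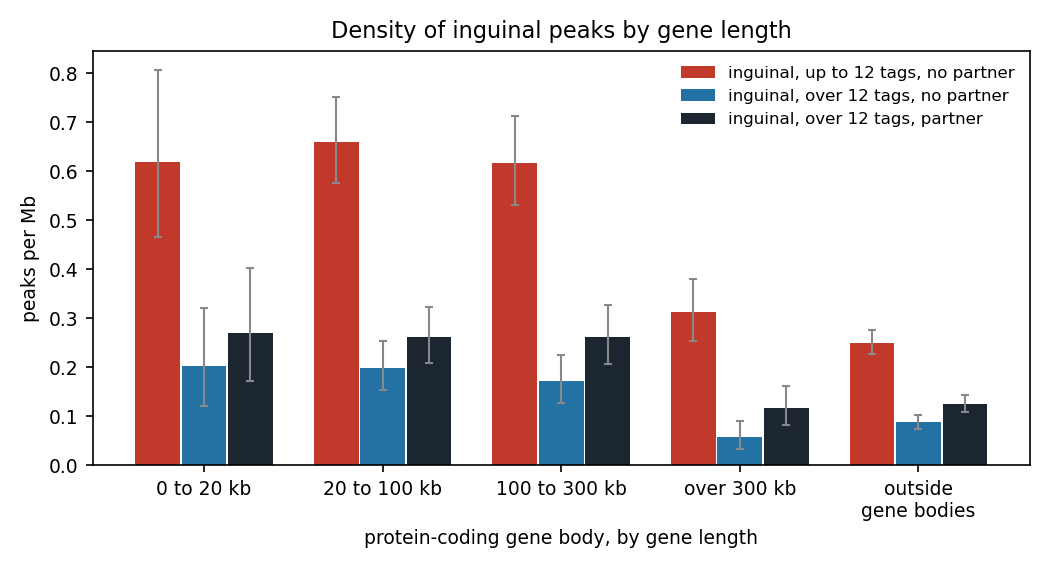
Peaks per Mb (vertical axis) in protein-coding gene bodies grouped by gene length, and outside them (horizontal axis), for 3 classes of inguinal peaks; error bars are exact Poisson 95% intervals. In each class the density in genes over 300 kb, 0.313 per Mb for the low unpartnered peaks, is below that of shorter genes.

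Among chromosomes the X stood apart. It held 3 low unpartnered peaks, 0.308% (0.105 to 0.901%), while it makes up 6.27% of the span. These lay 147.8 kb upstream of Mamld1, 26.1 kb upstream of Lpar4, a receptor gene for lysophosphatidic acid, and 44.5 kb upstream of the transcribed pseudogene E530001F21Rik, in an MTC repeat, with 11, 11 and 9 tags. Of the Y chromosome, which is 3.34% of the span, 0 of 975 low unpartnered peaks were listed, which allows a share of up to 0.308% by a limit of 3 counts (the Wilson upper limit is 0.392%). The X was sparse in the other classes too, with 3 of 302 tall unpartnered, 2 of 436 tall partnered and 18 of 2912 low unpartnered perigonadal peaks. On 16 of 19 autosomes the interval of the share held the share of the span. Chromosomes 2 and 11 were above it, at 8.72% of peaks against 6.69% of the span and at 6.87% against 4.48%. Chromosome 7 was below it, at 3.9% against 5.34%. The span counts the sparse X and Y, which lowers the span share of every autosome, and shares over autosomes alone were not computed. Of protein-coding genes, chromosomes 2 and 11 hold 8.14% and 7.35%, and chromosome 7 holds 9.27%.

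**Figure D5:**
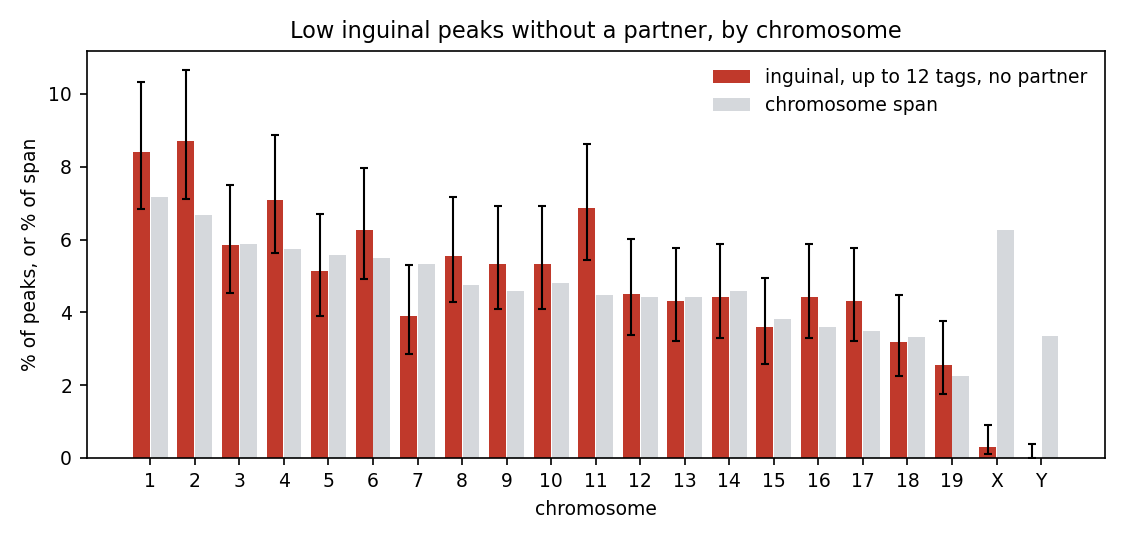
Share of the 975 low unpartnered peaks on each chromosome, with Wilson 95% intervals, beside the share of the chromosome in the span (vertical axis, percent; chromosomes on the horizontal axis). The X bar, 0.308% of peaks, is far below its 6.27% of the span.

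Most low unpartnered peaks stood alone, as did most peaks of the other inguinal classes. Another inguinal peak lay within 10 kb of 21 of them, 2.15% (1.41 to 3.27%), against 8.61% of tall unpartnered peaks (difference -6.46 points, -10.2 to -3.56) and 6.42% of tall partnered peaks (difference -4.27 points, -7.07 to -2.03). Low peaks with a partner had such a neighbour in 2.78% of cases, a difference of -0.62 points (-7.46 to 1.68) that includes 0. Within 50 kb the share was 10.9%, against 19.4% of low peaks with a partner (difference -8.57 points, -19.3 to -0.79). When low unpartnered peaks within 50 kb of each other were joined, 918 remained single, 27 pairs formed, and 1 group of 3 lay on chromosome 14 with 10 tags at each site. Its nearest genes were Farp1, which encodes a guanine nucleotide exchange factor, at 1 site and Stk24, a kinase gene, at the other sites, all in introns.

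Perigonadal peaks lay near low unpartnered peaks more often than the span would give, although by selection none overlapped. Within 10 kb of a perigonadal peak lay the centres of 58, or 5.95% (4.63 to 7.61%), against 2.84% of the span, a ratio of 2.09. For tall unpartnered peaks the share was 10.6% (7.61 to 14.6%), a ratio of 3.73. Of low unpartnered peaks 4 had a perigonadal peak within 1 kb. The shortest gap was 382 bp, 1.78 kb upstream of Olfr750, an olfactory receptor gene, followed by 425 bp in intron 1 of Stk32c, a kinase gene. Gaps of 837 and 944 bp were found near Hivep1, a zinc finger gene, and in Rnf125, a ubiquitin ligase gene. The fifth smallest gap, 1190 bp, was near the non-coding gene 4930572O13Rik.

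The deposited focus ratio, a fraction that describes how well tags line up around the peak centre, had a median of 0.8 in low unpartnered peaks, with quartiles of 0.75 and 0.857. Low partnered, tall unpartnered and tall partnered peaks had medians of 0.778, 0.816 and 0.841. The ratio rests on the same tags as the score and is given as a description. The highest values were 0.941 near Acad10, 0.938 near Lima1 and 0.933 at several sites. Of the latter, that near Tbc1d16 came first by position with chromosome names sorted as text. The peaks at Acad10 and Lima1 lie in L1ME4b and MLT1G3 repeats. The lowest were 0.5 near Tff3, 0.545 near Ern1 and 0.55 near Pde3a.

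Genes were then taken from the peaks. A protein-coding gene was counted when it was the nearest gene of a peak and its promoter lay within 50 kb, which held for 508 genes, 2.32% of 21900. Their median length was 40.7 kb, against 17.1 kb over all protein-coding genes. Of these 508 genes, 99 also had a perigonadal peak within 50 kb at another site, 19.5% (16.3 to 23.2%), while 8.89% of all protein-coding genes had one. For the 182 genes of tall unpartnered peaks the share was 25.3% (19.5 to 32.1%). The part of gene length in these shares was not tested. The low unpartnered peaks had 924 nearest genes, of which 875 were nearest to 1 peak and 48 to 2.

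Lpp, a gene of a focal adhesion protein next to Bcl6, was the nearest gene of 4 low unpartnered peaks, more than any other gene. They lay 158.5 kb and 0.613 kb upstream of its promoter with 11 and 12 tags, and, in its introns 1 and 3, 21.1 kb before and 77.7 kb after the nearest promoter with 10 tags each. Bcl6 itself was nearest to 2, at 140.2 and 177.9 kb upstream with 11 tags each (chr16:24128753-24128955 and chr16:24166412-24166614). The second of these lay 6.16 kb from a perigonadal peak of 21 tags. These Bcl6 sites lay in MIR3 and MTD repeats. The Lpp sites 158.5 kb upstream and 77.7 kb after the promoter lay in tRNA-Ala-GCG and Lx4A repeats, and the other Lpp sites carried no repeat name.

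The 8 sites nearest to promoters of protein-coding genes lay at genes of various functions. The peaks of Tldc2, a TLD domain gene, of Mtbp, which encodes an MDM2-binding protein, and of Jagn1, an endoplasmic reticulum gene needed by neutrophils, had 12 tags each and lay 0, 6 and 12 bp from the start. Those of Cast and of Lhx3, a LIM homeobox gene of pituitary development, had 11 tags and lay 4 and 13 bp away. A peak of 11 tags lay 68 bp upstream of Tmem154. Mtrf1, a mitochondrial release factor gene, had a peak of 10 tags 75 bp upstream, and Zdhhc5, a palmitoyltransferase gene, a peak of 12 tags 90 bp downstream. Perigonadal peaks came as close as 1251 bp to the Mtbp site and 1433 bp to the Lhx3 site.

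Adipocyte identity genes were among those with low unpartnered peaks close to a start site, 3 of 20 against the 2.32% of all genes. Low unpartnered perigonadal peaks counted 5 of 20 genes of this list within 50 kb, against 6.61% of all genes. Cidec had a peak of 12 tags in intron 1, 0.775 kb downstream of a promoter by the deposited distance (chr6:113434879-113435081). The same peak shared 136 bases with the Cidec stretch shown above, which lies upstream of another RefSeq start of the gene. Acvr1c, which encodes the activin receptor ALK7, had a peak of 12 tags in intron 1, 1.42 kb from its promoter (chr2:58323289-58323491). Lep, the leptin gene, had a peak of 10 tags 0.424 kb upstream (chr6:29059696-29059898). The closest perigonadal peak at Lep, of 10 tags, lay 10.6 kb away in an intron. No perigonadal peak lay nearer than 48.2 kb to the Cidec site. The sites of Cidec, Acvr1c and Lep all lay within 10 kb of the promoter, which held for 0.895% of all genes. None of the other 17 members of this list had a low unpartnered peak within 50 kb.

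Inflammatory genes had low unpartnered peaks within 50 kb for 3 of 22 members, against 2.32% of all genes. Lcn2, the lipocalin 2 gene, had a peak of 10 tags 0.241 kb into the gene (chr2:32387397-32387599). Irf1, an interferon response factor gene, had 1 of 11 tags 22.7 kb downstream of its promoter, in an RMER15 repeat. Cxcl1, a neutrophil chemokine gene, had 1 of 11 tags 35.1 kb upstream, in a B3 repeat. Beyond 50 kb, a peak of 11 tags lay 64.7 kb upstream of Il6 and a peak of 12 tags 209.1 kb upstream of Tlr4, the lipopolysaccharide receptor gene.

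Known BCL6 targets of lymphocytes counted 2 of 20, against 2.32% of all genes, with peaks of 11 tags each. These lay 5.27 kb upstream of a promoter of Bcl2, a survival gene, and 13.3 kb upstream of Gpr183, an oxysterol receptor gene. The first was labelled as a transcription end, and the second lay in a MYSERV6-int repeat. A peak of 12 tags 274.7 kb upstream of Prdm1, the plasma cell factor gene, was too far to count. Growth hormone, IGF and STAT5 signalling counted 1 of 18, Igf1, with 10 tags in intron 3. Insulin signalling counted 1 of 22, Trib1, a pseudokinase gene, with 10 tags at 14.2 kb. In the low unpartnered perigonadal peaks 12 of 22 insulin signalling genes were counted, with 6.61% of all genes as background, against 2.32% for the inguinal peaks. The median length of the insulin signalling list was 75.4 kb, against 17.1 kb over all protein-coding genes. The part of gene length in these counts was not tested. Circadian clock genes counted 1 of 18, Npas2, a partner of BMAL1, with 12 tags 2.82 kb upstream. Extracellular matrix genes counted 1 of 20, Col6a3, with 10 tags in intron 1.

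By promoter distance no gene was counted for lipogenesis (22 genes), lipolysis and fatty acid oxidation (22) or corepressors and HDACs (16). A low unpartnered peak lay inside the gene body for 2, 1 and 1 genes of these lists, against 2.43% of all protein-coding genes. The median gene lengths of the lists were 33.9, 20.9 and 87.0 kb, against 17.1 kb over all protein-coding genes. Low unpartnered peaks nearest to members of these lists lay farther off, at 85.7 and 116.2 kb upstream of Dio2, the type 2 deiodinase gene, 56.5 kb into Elovl6, a fatty acid elongase gene, and 125 kb into Hdac4. Markers of other cell types of fat counted 0 of 13 for fibroblasts and preadipocytes, 0 of 14 for macrophages, 0 of 13 for lymphocytes and 0 of 12 for endothelium, against 2.32% of all genes. Over all lists 12 of 276 different genes were counted, 4.35%. The lists were drawn up with earlier results of these data known, so this share is a description.

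A list of long genes, drawn up for neuronal adhesion and synapse genes, also holds Wwox and Fhit, which are not of that kind. It counted 0 of 30 by promoter distance, but 9 of 30 had a low unpartnered peak inside the gene body. By that measure the share over all protein-coding genes was 2.43% and over genes above 300 kb 15.8%. Wwox, an oxidoreductase gene at a fragile site, and Cdh13, the T-cadherin gene that encodes an adiponectin-binding protein, were each nearest to 2. Wwox had peaks of 10 and 12 tags in introns 5 and 8, and Cdh13 peaks of 10 and 11 tags in introns 1 and 2. Others lay in Csmd1, Kcnip4, Fhit, Tenm2 and Lsamp, at 62.3 to 220.2 kb from the nearest promoter. The median length of this list was 1221 kb.

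Olfactory receptor genes, a large family of odorant receptors, were rare among the genes with a low unpartnered peak. Of 1110 such genes, 3 were counted, 0.270%, against 2.32% of all genes. They were Olfr750, Olfr71 and Olfr887, with 11 tags each. The family was sparse in other classes too. Low unpartnered perigonadal peaks counted 19 of the 1110, against 6.61% of all genes. It held 0 of the 182 genes of tall unpartnered peaks and 1 of the 246 genes of tall partnered peaks. Only the nearest gene of a peak could count. Of 355 vomeronasal receptor genes 0 were counted. Zinc finger genes counted 9 of 441, 2.04%, and solute carrier genes 8 of 375, 2.13%, near the share of all genes.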

How the data were processed

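Bowtie 1.2, HOMER and the build mm10 are named in the submitters' processing notes, and the peaks were annotated on mm10, per the file headers. The inguinal header names a false discovery rate of 0.001 and the perigonadal header no threshold, so the lists may have been called at different limits. The deposited peak score, the focus ratio (a deposited fraction), the signed distance to a promoter and the position are the authors' values. Inguinal peaks were 202 bp and perigonadal peaks 184 bp wide. Tags were taken as score divided by the step of 0.752 or 0.882, of which 100% of scores were whole multiples within rounding. The total behind the scaling, and with it the depth, is unknown.

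Shares carry Wilson 95% intervals, differences Newcombe 95% intervals, and counts exact Poisson 95% intervals (Python 3.11.15, SciPy 1.17.1). Functions were tested on simulated data. Gene names, types and lengths came from a RefSeq table of GRCm38.p6, matched by Entrez number. Of the 975 peaks 5 had a nearest gene without a match. Promoter sequences are RefSeq's, and those of chromosome 18 were not used here. The selection and the 15 gene lists were chosen with earlier results of these data known. Named are the 8 sites nearest to promoters of protein-coding genes, genes nearest to 3 or more sites, up to 4 genes per list, the 3 highest and 3 lowest focus ratios (ties by position), the 5 smallest gaps to a perigonadal peak and promoter sites with the motif. Any other named site was picked with its value in view. The alternatives concerned the height limit, the partner rule, autosomes, repeats, windows and assignment distances.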

Additional observations from a re-analysis of the deposited data

How the results depend on the processing

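No paired analysis was possible because each depot had 1 BCL6 library and the result comes from no test across samples. Of 109 recomputed values 90 stayed the same by the rule for their kind. A share or median had to stay within the interval of the reported value, and a count within 1.5 times the reported count. A difference had to keep its sign, and its interval had to leave out or include 0 as reported. The differences between classes were added to the alternatives after the data were seen. With 10 tags or fewer, 348 peaks, 182 genes and 5 genes of the lists were left, the promoter share was 7.47% and the share with an inguinal neighbour 1.15%. The comparison class then holds all peaks above 10 tags. The promoter difference to unpartnered taller peaks reversed to 0.80 points, with an interval that includes 0, and the repeat difference to them fell to 3.08 points, no longer clear of 0. The repeat difference to tall partnered peaks kept its side under each alternative that could be computed. With 14 tags or fewer the intron difference to tall partnered peaks was 4.88 points and included 0. Leaving out peaks in repeats left 706 peaks, with an intergenic share of 36.8% and a promoter share of 7.65% of this smaller number. The repeat share has no value there. Windows of 0.5 and 5 kb gave promoter shares of 3.79% and 14.2%, and at 5 kb the difference to tall partnered peaks was -4.88 points, clear of 0. Within 50 kb, 10.9% had an inguinal and 21.9% a perigonadal neighbour. With partners sought only among perigonadal peaks of more than 12 tags, 9.40% had a perigonadal neighbour within 10 kb. Assignment within 10 kb left 196 genes and 7 of the lists. Within 50 bp of the centre 0 peaks held the motif, against 1 anywhere in the peak. The cause of these shifts was not tested. The unknown depth and the single library per depot limit all values.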

Other observations

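Of 9 inguinal peaks of up to 12 tags on the X chromosome, 6 overlapped a perigonadal peak, against 66 of 1038 on autosomes. In all, 14 of 1785 inguinal and 30 of 3956 perigonadal peaks lay on the X chromosome, 0.784% and 0.758%. Height and overlap are the values of the selection, and this split was picked with its values in view, so the counts are a description.

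Among the low unpartnered peaks, those of 10 tags lay within 1 kb of a promoter in 24 of 295 cases, 8.14%, and those of 11 tags in 14 of 449, 3.12%. At 9 tags the share was 3.77% and at 12 tags 7.87%, with no order by height. Height is part of the selection, and these shares are a description.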
